A study of Arabidopsis thaliana with 12 samples.

Results

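The light-harvesting complex (LHC) superfamily was followed in Arabidopsis thaliana seedlings through 30 nuclear genes, named by locus from the LHCA, LHCB, PSBS, ELIP, OHP, SEP and LIL3 families. All 30 of the 30 loci were found among the 25835 genes that the deposited tables list, and all 30 passed the filter for testing, a mean of at least 1 FPKM (fragments scaled by gene length and by the library's read total) over the 12 libraries, which 19170 genes passed. The seedlings were 9 days old, of the Columbia ecotype, either wild type or eif4e mutant, raised at 22 °C in long days (16 h light, 8 h dark) and frozen whole at zeitgeber time 16 h, when the light period ended. From each genotype, polyadenylated RNA was sequenced from total RNA (the transcriptome) and from immunopurified ribosomes (the translatome), with 3 replicates in each of the 4 groups. The eif4e allele, the protein by which ribosomes were captured and the promoter behind it are not given in the sources used here, so it is not known here which cells of the seedling the ribosomes came from. The labels do not say whether replicates came from separate cultures, so p-values measure the spread between these samples.

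LHC proteins are thylakoid membrane proteins, most of which bind chlorophyll and carotenoids and pass absorbed light energy to the photosystems. They are encoded in the nucleus, translated on cytosolic ribosomes and imported into the chloroplast, and the major antenna transcripts are among the most abundant mRNAs of green tissue. LHCA proteins serve photosystem I and LHCB proteins photosystem II, PSBS is needed for rapid thermal dissipation of excess light, and the smaller ELIP, OHP, SEP and LIL3 proteins take part in photoprotection, photosystem assembly or chlorophyll synthesis. The initiation factor eIF4E binds the mRNA cap in the complex that recruits ribosomes.

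Reads counted to listed genes ran from 17058704 to 24673644 per library, and the 3 total eif4e libraries held 17058704 to 19973299. EIF4E1 (AT4G18040), which checks the genotype labels, stood at 45.8, 44 and 44.2 FPKM in total wild type and 8.28, 24.2 and 8.29 FPKM in total eif4e, and at 71.9, 92.9 and 87.2 FPKM and 12.3, 11.6 and 13.9 FPKM in the ribosome-bound libraries of these genotypes. Replicate 2 of total eif4e held the highest EIF4E1 level of the mutant libraries. Against total wild type of the same replicate number, its log2 difference in scaled counts was -0.77, and those of replicates 1 and 3 were -2.32 and -2.27. The label check is thus weaker for this library, and the cause was not tested. Of 16 root markers, 15 were tested, of which 5 were lower and 0 higher in total eif4e (1 higher and 8 lower at an unadjusted p under 0.05), and 6 were lower and 1 higher on ribosomes (edgeR's quasi-likelihood test with Benjamini-Hochberg adjustment), while the 4 leaf mesophyll markers (RBCS1A, RCA, CA1 and GAPA) were all higher in both. Over all tested genes 10.4% were called higher and 6.54% lower in total eif4e, and 15.4% and 12% on ribosomes. At an unadjusted p under 0.05, 33% of all tested genes passed in total mRNA and 41.1% on ribosomes, in either direction. Of 5 guard cell markers 1 was higher in total mRNA and 2 on ribosomes, of 2 phloem markers 0 passed in either direction (0 also at an unadjusted p under 0.05), and of 4 markers of dividing cells 0 passed in total mRNA (4 lower at an unadjusted p under 0.05) and 3 were lower on ribosomes. The summed FPKM of the root list ran from 2340 to 2970 in total wild type and 1660 to 2090 in total eif4e. On ribosomes it ran from 1730 to 1930 in wild type and 1170 to 1460 in eif4e. Most of this sum came from 1 gene, PYK10, at 2154 to 2763 FPKM in total wild type. PYK10 passed in neither comparison (edgeR adjusted p = 0.0857 in total mRNA and 0.0574 on ribosomes). The mesophyll sum ran from 14000 to 15700, 19400 to 23700, 17400 to 21500 and 22400 to 29000 in the same order. RBCS1A gave most of it, at 8166 to 9126 FPKM in total wild type. Over all lists, 0 markers were at 0 in every library. In whole seedlings, fewer cells of a type and less RNA per cell cannot be told apart, and the part of these marker shifts in the results that follow was not tested.

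Levels spanned more than 3 orders of magnitude across the superfamily. LHCB1.3 (AT1G29930), a gene of the main trimeric antenna of photosystem II also known as CAB1, was the most abundant member at 3310 ± 587 FPKM (SD, n = 3) in total wild type, where its mean rank was 5 among the listed genes. LHCA2, LHCB4.1, LHCB5, PSBS, LHCB1.5 and LHCB6 followed in total wild type, at 1226 ± 86.7, 935 ± 42.2, 861 ± 79.1, 699.8 ± 59.4, 411 ± 48.6 and 410 ± 28.7 FPKM. Along this order, the ranges of the 3 libraries overlapped between LHCB4.1 and LHCB5 and between LHCB1.5 and LHCB6, and the other neighbours were separated. At the low end, ELIP1 stood at 16.2 ± 5.06 FPKM and ELIP2 at 2.52 ± 0.606 FPKM, which for ELIP2 meant as few as 34 counts in a library.

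The deposited values of the 5 LHCB1 genes were far from equal. LHCB1.3 gave 83.7% ± 0.602 (SD, n = 3) of their summed FPKM in total wild type, LHCB1.5 gave 10.5% ± 0.653, LHCB1.4 gave 3.41% ± 0.183, LHCB1.2 gave 1.94% ± 0.216 and LHCB1.1 gave 0.470% ± 0.0352. The share of LHCB1.3 stayed between 81.4 and 84.4% in every one of the 12 libraries. In the annotation LHCB1.1 lies directly beside LHCB1.2 and LHCB1.3, LHCB1.4 lies directly beside LHCB1.5, and LHCB2.1 directly beside LHCB2.2. These copies are nearly identical, and the sources used here do not say how reads that match several of them were counted. Values of single LHCB1 and LHCB2 genes, and their order by level, are therefore uncertain. Sums over the 5 LHCB1 genes and over LHCB2.1 with LHCB2.2 are given beside them. The sums are uncertain too, since reads that match several copies may have been left out. The LHCB2 genes, whose proteins join the same trimers and are phosphorylated in state transitions, had low deposited values, from 27.3 to 43.5 FPKM over the total wild-type libraries.

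**Figure D1:**
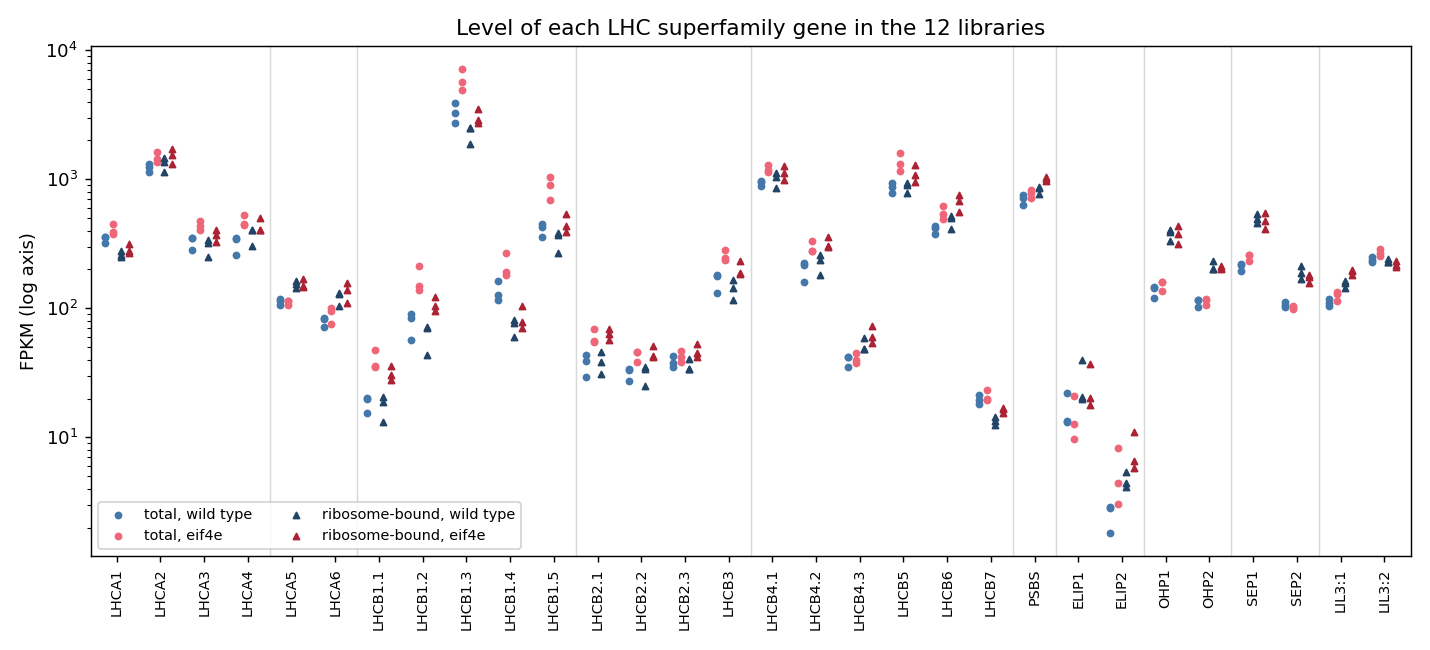
FPKM (log axis) of the 30 genes in each of the 12 libraries, with circles for total and triangles for ribosome-bound mRNA and vertical lines between subfamilies. LHCB1.3 lies between 1871 and 7130 FPKM in every library, and ELIP2 between 1.825 and 11 FPKM.

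In total mRNA, the question was how the mutant's transcript levels differed from those of the wild type. Most antenna transcripts were higher in eif4e, among them all 5 LHCB1 genes, and of the ELIP, OHP, SEP and LIL3 genes ELIP2, SEP1, LIL3:1 and LIL3:2 were higher. Of the 30 members, 20 were higher and 0 lower (edgeR's quasi-likelihood test, TMM scaling, Benjamini-Hochberg adjusted p under 0.05), against 10.4% of all tested genes called higher and 6.54% called lower. The 3 libraries of each genotype did not overlap in FPKM for 19 members that were higher and 0 that were lower (10.4% and 34.5% of all tested genes). At an unadjusted p under 0.05, 23 members were higher and 0 lower, where 33% of all tested genes passed in either direction. DESeq2 called 21 members higher and 0 lower, with 1933 of all genes higher and 1522 lower. The median log2 change of the members was 0.44, from -0.05 for ELIP1 to 1.24 for LHCB1.2, where the median over all tested genes was close to 0. Genes of the pigment-binding antenna (LHCA and LHCB) gave 15 higher of 21 with a median log2 change of 0.59, and the 8 ELIP, OHP, SEP and LIL3 genes gave 4 higher with a median of 0.29.

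LHCB1.3 was at 3283, 2738 and 3910 FPKM in total wild type replicates 1 to 3 and at 4891, 5698 and 7130 FPKM in total eif4e. Every mutant library lay above every wild-type library, and the highest of each genotype was replicate 3. The log2 change was 0.97 ± 0.17 (SE, a 1.95-fold rise, edgeR adjusted p = 0.0047). LHCB1.5 (AT2G34420), the next copy by abundance, was at 427, 356 and 449.9 FPKM in total wild type and 695, 905 and 1047 FPKM in total eif4e. Its groups did not overlap, and its log2 change was 1.23 ± 0.18 (edgeR adjusted p = 0.00143). The other 3 LHCB1 genes also rose without overlap between the groups, LHCB1.4 (AT2G34430) by 0.80 ± 0.20, LHCB1.1 (AT1G29920) by 1.22 ± 0.18 and LHCB1.2 (AT1G29910) by 1.24 ± 0.23 on the log2 scale. With the counts of the 5 copies summed, LHCB1 rose by 1.0 ± 0.18 on the log2 scale (edgeR adjusted p = 0.00413). Together the LHCB1 genes took 0.422% ± 0.0727 (SD, n = 3) of all counts in total wild type and 0.780% ± 0.147 in total eif4e, and the single libraries ran from 0.350 to 0.495% and from 0.647 to 0.937%.

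**Figure D2:**
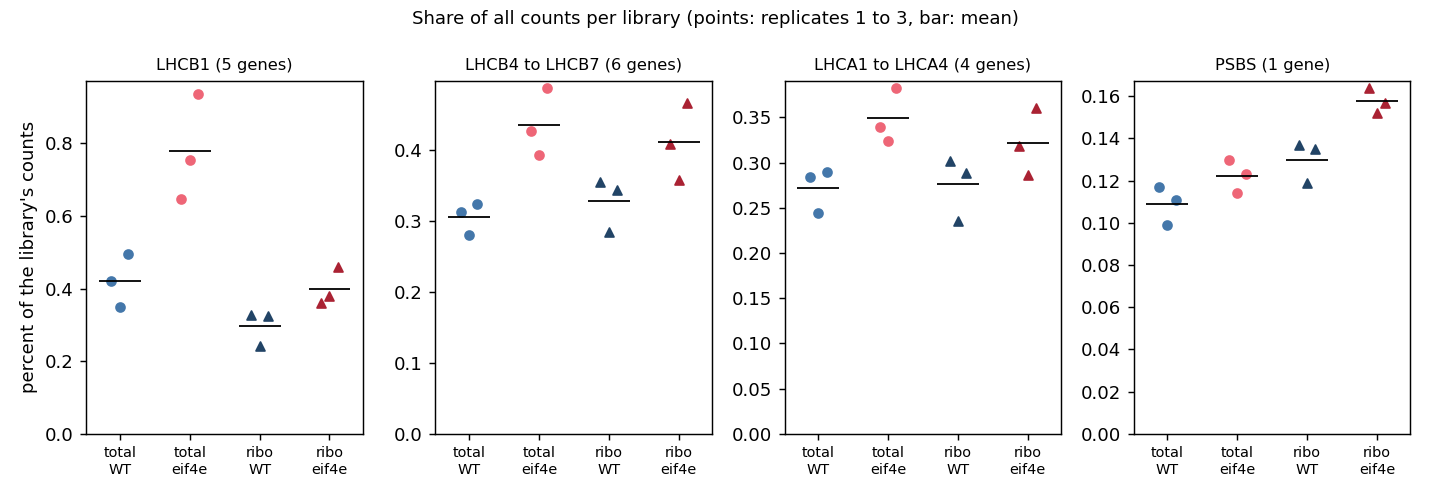
Percent of each library's counts held by the LHCB1, LHCB4 to LHCB7, LHCA1 to LHCA4 and PSBS genes, in 4 panels with axes that start at 0; points are replicates 1 to 3 from left to right and bars are group means. The LHCB1 share of total mRNA lies between 0.350 and 0.495% in wild type and between 0.647 and 0.937% in eif4e, and on ribosomes it lies between 0.241 and 0.328% and between 0.361 and 0.460%.

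Among the other trimer genes, LHCB3 (AT5G54270), whose protein occurs in the trimers that sit close to the photosystem II core, was at 179.7, 131 and 179 FPKM in total wild type and 235, 248 and 283 FPKM in total eif4e. All mutant libraries were higher, with a log2 change of 0.78 ± 0.16 (edgeR adjusted p = 0.00804). LHCB2.1 (AT2G05100) rose by 0.82 ± 0.16 and LHCB2.2 (AT2G05070) by 0.59 ± 0.14 on the log2 scale, each without overlap between groups, and with their counts summed the rise was 0.72 ± 0.14 (edgeR adjusted p = 0.00755). LHCB2.3 (AT3G27690), a copy at another locus, gave 0.27 ± 0.12 with a 95% interval of 0.01 to 0.53, and its groups overlapped (edgeR adjusted p = 0.144).

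The minor antenna of photosystem II, monomeric proteins that link the trimers to the core, had 4 of 6 genes higher. LHCB5 (AT4G10340), which encodes CP26, was at 874, 777 and 934 FPKM in total wild type and 1305, 1163 and 1584 FPKM in total eif4e, a log2 change of 0.78 ± 0.14 (edgeR adjusted p = 0.00531). The lowest mutant library exceeded the highest wild-type library. LHCB4.1 (AT5G01530) and LHCB4.2 (AT3G08940), both for CP29, rose by 0.50 ± 0.12 and 0.71 ± 0.16 on the log2 scale, and LHCB6 (AT1G15820), for CP24, by 0.55 ± 0.14. LHCB4.3 (AT2G40100), a CP29 relative, gave 0.18 ± 0.14 (edgeR adjusted p = 0.399), and LHCB7 (AT1G76570), a rarely expressed relative, gave 0.22 ± 0.09 (edgeR adjusted p = 0.12). Both overlapped between genotypes.

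Of the 4 main photosystem I antenna genes 3 were higher, and of the 2 minor ones 0 passed. LHCA4 (AT3G47470), whose protein pairs with LHCA1 and carries the most red-shifted chlorophylls, was at 351, 258 and 344 FPKM in total wild type and 440.2, 449.6 and 532 FPKM in total eif4e, with a log2 change of 0.71 ± 0.15 (edgeR adjusted p = 0.0105). The groups did not overlap, nor did they for LHCA1, LHCA2 and LHCA3. LHCA1 (AT3G54890) rose by 0.37 ± 0.09 and LHCA3 (AT1G61520) by 0.54 ± 0.13 on the log2 scale, while LHCA2 (AT3G61470), the partner of LHCA3, gave 0.39 ± 0.13 and missed the threshold (edgeR adjusted p = 0.055). LHCA5 (AT1G45474) and LHCA6 (AT1G19150), minor proteins that link photosystem I to the NDH complex, gave 0.12 ± 0.08 and 0.31 ± 0.15 on the log2 scale and overlapped between genotypes (edgeR adjusted p = 0.33 and 0.181).

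PSBS (AT1G44575) was at 753, 635 and 711 FPKM in total wild type and 818, 722 and 781 FPKM in total eif4e. One wild-type library exceeded the lowest mutant library, and the log2 change of 0.27 ± 0.08 passed the threshold narrowly (edgeR adjusted p = 0.0465). LIL3:1 (AT4G17600) and LIL3:2 (AT5G47110), whose proteins hold geranylgeranyl reductase of chlorophyll synthesis at the membrane, rose by 0.31 ± 0.08 and 0.31 ± 0.07 on the log2 scale (edgeR adjusted p = 0.0268 and 0.0159). SEP1 (AT4G34190), a stress-enhanced protein gene, rose by 0.38 ± 0.11, whereas SEP2 (AT2G21970) gave 0.07 ± 0.09 on the log2 scale (edgeR adjusted p = 0.0406 and 0.645). OHP1 (AT5G02120) and OHP2 (AT1G34000), whose proteins act together in assembly of the photosystem II reaction centre, gave 0.28 ± 0.13 and 0.15 ± 0.07 (edgeR adjusted p = 0.179 and 0.159).

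The early light-induced protein genes, which rise under high light and other stress, were the most variable members. ELIP2 (AT4G14690) was at 2.9, 2.85 and 1.83 FPKM in total wild type and 4.44, 8.21 and 3.07 FPKM in total eif4e, a log2 change of 1.17 ± 0.36 (edgeR adjusted p = 0.0464). Replicate 2 of the mutant was by far the highest, and the lowest mutant value lay just above the highest wild-type value. ELIP1 (AT3G22840) was at 13.2, 22.1 and 13.4 FPKM and 9.73, 20.9 and 12.7 FPKM, and its log2 change of -0.05 ± 0.38 had a 95% interval of -0.89 to 0.80 (edgeR adjusted p = 0.942). In both genotypes replicate 2 held the highest ELIP1 level, 1.66 times the mean of the other libraries in wild type and 1.86 times in eif4e.

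The calls in total mRNA depended on the libraries used. Without total wild type replicate 1, total wild type replicate 2 or total eif4e replicate 3, the members called higher were 12, 9 and 9. Of all tested genes 1133, 1092 and 1166 were then higher, against 2001 with all libraries. Without total eif4e replicate 2, the mutant library with the highest EIF4E1 level, 18 members were higher (1543 of all genes). Without replicate 1 or replicate 3 of all 4 groups, 1 and 6 members were higher, where 370 and 575 of all genes were. The members' median log2 change without replicate 1 was 0.47. Of the 20 called genes, 8 kept the call in each of the 12 omissions of a single library, namely LHCA4, LHCB1.1, LHCB1.2, LHCB1.3, LHCB1.5, LHCB2.1, LHCB3 and LHCB5. With the replicate number as a block 24 members were higher and 0 lower (16.8% and 15% of all genes), as LHCA2 (edgeR adjusted p = 0.00196), LHCA6 (0.00988), LHCB7 (0.0421) and OHP1 (0.0128) also passed the threshold. With a correction for gene length, a smooth trend of the counts on length removed within each library, 16 members were higher and 0 lower (9.17% and 8.78% of all genes), and 23 and 0 with the block as well (15.1% and 19.3%). On the scale of the deposited FPKM values, without TMM, the median of all tested genes lay at -0.12 log2, and limma called 14 members higher and 0 lower where it called 979 genes higher and 3635 lower in all, against 2001 and 1253 in edgeR. There LHCA5 and SEP2 lay at -0.01 and -0.06, so the sign of these genes in total mRNA depended on the scaling.

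On ribosomes, the question was how the translated mRNA of the mutant differed from that of the wild type. Genes of the LHCB2 and LHCB3 group, the low LHCB1 copies, LHCB4.2, LHCB6, LHCB7, PSBS and LIL3:1 were higher in eif4e. The log2 estimates of LHCB2.1 and LHCB2.2 were 0.76 and 0.58, against 0.82 and 0.59 in total mRNA, and those of LHCB1.3 and LHCB1.5 were 0.46 and 0.47, against 0.97 and 1.23. Of the 30 members, 11 were higher and 0 lower (edgeR's quasi-likelihood test, adjusted p under 0.05), against 15.4% of all tested genes higher and 12% lower. FPKM did not overlap between genotypes for 15 members that were higher and 0 that were lower (16% and 22.6% of all tested genes). The unadjusted p was under 0.05 for 17 members higher and 0 lower, where 41.1% of all tested genes passed in either direction. DESeq2 called 14 members higher and 0 lower, with 2679 of all genes higher and 2453 lower. The median log2 change was 0.32 over the 30 members, 0.39 over the 21 antenna genes (9 higher) and near 0 over the 8 ELIP, OHP, SEP and LIL3 genes (1 higher). Of the 30, 9 were called higher in both total and ribosome-bound mRNA, 11 in total mRNA only, 2 on ribosomes only (LHCB2.3 and LHCB7) and 8 in neither, which by itself does not show that the changes differed.

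LHCB1.3 was at 2516, 1871 and 2498 FPKM in ribosome-bound wild type and 2749, 2895 and 3485 FPKM in ribosome-bound eif4e. All mutant libraries were higher, but the margin was small, and the log2 change of 0.46 ± 0.17 did not pass the threshold (edgeR adjusted p = 0.0711, or 0.00391 with the replicate block). LHCB1.5 was at 382, 271 and 367 FPKM and 393, 436 and 536 FPKM, a log2 change of 0.47 ± 0.18 (edgeR adjusted p = 0.0689, or 0.0126 with the block). Its groups did not overlap, while those of LHCB1.4 did (0.26 ± 0.20, edgeR adjusted p = 0.345). The low copies LHCB1.1 and LHCB1.2 rose by 0.89 ± 0.18 and 0.85 ± 0.23 on the log2 scale (edgeR adjusted p = 0.00624 and 0.0203). Summed over the 5 copies, the LHCB1 change was 0.47 ± 0.18 (edgeR adjusted p = 0.0682, or 0.00408 with the block), and the LHCB1 share of all counts was 0.298% ± 0.0494 in wild type and 0.400% ± 0.0527 in eif4e (SD, n = 3).

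LHCB2.1 was at 38.3, 31.2 and 45.8 FPKM in ribosome-bound wild type and 63, 57.1 and 68.6 FPKM in ribosome-bound eif4e, a log2 change of 0.76 ± 0.16 (edgeR adjusted p = 0.00764). LHCB2.2 and LHCB2.3 rose by 0.58 ± 0.14 and 0.41 ± 0.12 and LHCB3 by 0.56 ± 0.16 on the log2 scale. All 4 genes of this group were thus called, each without overlap between genotypes. With the counts of LHCB2.1 and LHCB2.2 summed the rise was 0.68 ± 0.14 (edgeR adjusted p = 0.00718). In the minor antenna, LHCB6 was at 521, 409 and 498 FPKM and 676, 559 and 759 FPKM, a log2 change of 0.53 ± 0.14 (edgeR adjusted p = 0.016). LHCB4.2 rose by 0.55 ± 0.16 and LHCB7 by 0.33 ± 0.09, while LHCB5 gave 0.39 ± 0.14 without overlap and missed the threshold (edgeR adjusted p = 0.0627, or 0.00188 with the block). LHCB4.1 gave 0.22 ± 0.12 (edgeR adjusted p = 0.187, or 0.0411 with the block) and LHCB4.3 gave 0.32 ± 0.14 (edgeR adjusted p = 0.105), both with overlap.

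Of the 6 LHCA genes, 0 passed the threshold on ribosomes in edgeR's quasi-likelihood test, in DESeq2 or in limma, and 1 (LHCA3) had an unadjusted p under 0.05. LHCA1, LHCA2, LHCA3 and LHCA4 gave log2 changes of 0.16 ± 0.09, 0.26 ± 0.13, 0.32 ± 0.13 and 0.28 ± 0.15, and LHCA5 and LHCA6 gave 0.06 ± 0.08 and 0.20 ± 0.15. With the replicate block LHCA2 (edgeR adjusted p = 0.0139), LHCA3 (0.00208) and LHCA4 (0.0219) passed. PSBS was at 875, 765 and 862 FPKM in ribosome-bound wild type and 1041, 966 and 1000 FPKM in ribosome-bound eif4e, and it rose by 0.31 ± 0.08 on the log2 scale without overlap (edgeR adjusted p = 0.0202).

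LIL3:1 was at 156, 144 and 162 FPKM and 198, 182 and 194 FPKM, without overlap, and rose by 0.36 ± 0.08 (edgeR adjusted p = 0.00971). Its paralog LIL3:2 was at 241, 227 and 229.7 FPKM and 210.3, 216 and 234 FPKM, with a log2 change of -0.03 ± 0.07 and a 95% interval of -0.19 to 0.13 (edgeR adjusted p = 0.769). OHP1, OHP2, SEP1 and SEP2 lay close to 0 on ribosomes, at 0.04 ± 0.13, 0.00 ± 0.07, -0.01 ± 0.11 and -0.11 ± 0.09 on the log2 scale. These values depended on the length correction, with which they were 0.34, 0.17, 0.17 and 0.04 (edgeR adjusted p = 0.0677, 0.121, 0.231 and 0.773). With the block as well, OHP1, OHP2 and SEP1 were called higher (edgeR adjusted p = 0.000183, 0.0354 and 0.034) and SEP2 was not (0.628). ELIP2 gave 0.78 ± 0.34 (edgeR adjusted p = 0.105, or 0.00501 with the block) and ELIP1 -0.06 ± 0.37 (edgeR adjusted p = 0.917).

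The block raised the count on ribosomes from 11 to 19 members (20.9% of all genes were called higher with it and 20.4% lower). Length correction gave 13 higher and 0 lower (9.56% and 8.71% of all genes), and 26 and 0 with the block (16.5% and 18.1%). Without ribosome-bound wild type replicate 2 the count was 4, and without ribosome-bound eif4e replicate 3 it was 6 (1684 and 2747 of all genes higher). Without replicate 1 or 3 of all groups it was 0 and 2, where 4 and 2287 of all genes were higher, against 2943 with all libraries. The members' median log2 change without replicate 1 was 0.38, against 0.32 with all libraries. LHCB1.1, LHCB2.1, LHCB2.2 and LIL3:1 were called in each of the 12 omissions of a single library. In limma on the FPKM scale 11 members were higher, with 1816 of all genes higher and 2791 lower, against 2943 and 2293 in edgeR.

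**Figure D3:**
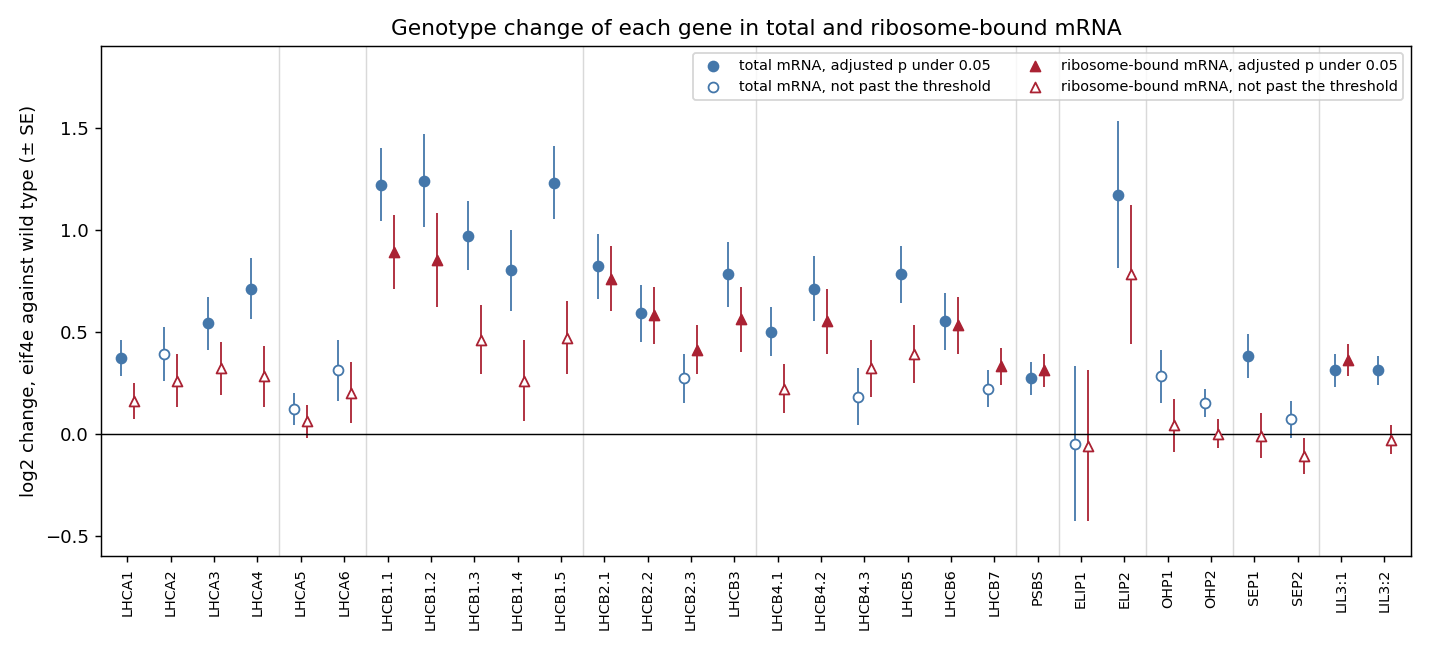
Log2 change of eif4e against wild type (points, ± SE from 3 libraries a group) for each of the 30 genes in total mRNA (circles) and ribosome-bound mRNA (triangles); filled symbols passed an adjusted p of 0.05. In total mRNA 20 symbols are filled and on ribosomes 11, and for 25 of the 30 genes the signed change on ribosomes lies below that in total mRNA.

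Whether the 2 changes of a gene differed was tested as an interaction, the ribosome-bound log2 change minus the total log2 change. The estimate was negative for 25 of 30 members, with a median of -0.19 where that of all tested genes was -0.01. Without the replicate block, 0 members were called in either direction (edgeR's quasi-likelihood test), against 1.67% of all genes higher and 2.35% lower. The unadjusted p was under 0.05 for 3 members, all lower (LHCB1.5, SEP1 and LIL3:2), and for 20.1% of all tested genes in either direction. DESeq2 called LHCB1.5 and LIL3:2 lower (702 of all genes lower and 650 higher), and limma called 0 members. Without ribosome-bound eif4e replicate 3 edgeR called 3 members lower (884 of all genes lower and 723 higher). Limma on the FPKM scale called 477 of all genes higher and 293 lower, against 321 and 451 in edgeR, and 10 members were positive there. LHCB1.5 had the largest estimate at -0.76 ± 0.25 (edgeR adjusted p = 0.11), followed by LHCB1.4 at -0.53 ± 0.28, LHCB1.3 at -0.51 ± 0.24 and LHCA4 at -0.43 ± 0.21 (edgeR adjusted p = 0.335, 0.277 and 0.294). For the LHCB2 genes the estimates lay near 0, with 95% intervals of -0.56 to 0.45 for LHCB2.1, -0.43 to 0.41 for LHCB2.2 and -0.23 to 0.51 for LHCB2.3. LHCB2.1 and LHCB2.2 summed gave -0.04 ± 0.20 (edgeR adjusted p = 0.958).

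With the replicate block, 7 members were called lower and 0 higher in the interaction (5.54% and 4.56% of all genes), namely LHCB1.5 (log2 -0.76, edgeR adjusted p = 0.0216), LHCB1.4 (0.0336), LHCB1.3 (0.0379), LHCA4 (0.0428), LHCB5 (0.0349), SEP1 (0.0347) and LIL3:2 (0.0252). LHCB1 summed over its copies gave -0.53 ± 0.25 (edgeR adjusted p = 0.26) without the block and -0.54 ± 0.14 (0.0365) with it. Over all tested genes the median interaction was -0.28 in the shortest of 5 length classes and 0.23 in the longest, and the members are short, at 0.345 to 1 times the length of the median tested gene. After correction for gene length, 0 members were called without the block (0.506% of all genes lower and 0.0261% higher) or with it (1.46% and 0.276%) in edgeR's quasi-likelihood test, and the members' median was -0.02 with 15 of 30 positive. At an unadjusted p under 0.05 the corrected interaction gave 1 member higher and 1 lower, and 5 higher and 7 lower with the block. The estimate of LHCB1.5 then was -0.60 (edgeR adjusted p = 0.393, or 0.101 with the block), that of LHCB1.3 -0.35, that of LHCA4 -0.34, that of LHCB5 -0.28 and that of SEP1 -0.11. The part of gene length in the interaction of these genes was not tested beyond this correction. Across the 30 members the total and ribosome-bound changes had a Pearson correlation of 0.811 and a Spearman correlation of 0.75, given as a description, since the members share their libraries.

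Ribosome association, the level in ribosome-bound against total mRNA of the same genotype, was highest for OHP1 and SEP1 and lowest for LHCB1.4. In wild type 11 members were higher on ribosomes and 3 lower (edgeR's quasi-likelihood test), against 33.8% of all tested genes higher and 33.6% lower, so the members' share of higher calls was near that of all genes and their share of lower calls was below it. In eif4e 9 were higher and 7 lower, against 29.1% and 29.3%. FPKM did not overlap between fractions for 10 members higher and 4 lower in wild type (30.1% and 41.3% of all genes) and for 9 higher and 8 lower in eif4e (29.2% and 33.3%). The 8 ELIP, OHP, SEP and LIL3 genes had a median log2 association of 0.98 in wild type (6 higher, 0 lower) and 0.80 in eif4e (5 higher, 1 lower), and the 21 antenna genes 0.11 (4 higher, 3 lower) and -0.08 (3 higher, 6 lower).

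OHP1 was at 144, 121 and 147 FPKM in total and 405, 332 and 393 FPKM in ribosome-bound wild type, a log2 association of 1.58 ± 0.14 (edgeR adjusted p = 1.5e-06), and in eif4e the association was 1.35 ± 0.14. SEP1 was at 218, 195 and 219 FPKM and 494, 461 and 539 FPKM in wild type, an association of 1.36 ± 0.11 (edgeR adjusted p = 1.2e-06), and 0.97 ± 0.11 in eif4e. In both genes every ribosome-bound library lay far above every total library. OHP2 and SEP2 gave 1.05 ± 0.07 and 0.96 ± 0.09 in wild type and 0.90 ± 0.07 and 0.78 ± 0.09 in eif4e, and LIL3:1 gave 0.59 ± 0.08 and 0.65 ± 0.08. For its paralog LIL3:2 the values were 0.08 ± 0.07 in wild type (edgeR adjusted p = 0.321) and -0.25 ± 0.07 in eif4e (edgeR adjusted p = 0.0101). LIL3:1 made up 31.7% ± 1.29 of the summed LIL3 FPKM in total and 39.8% ± 1.32 in ribosome-bound wild type, and 31.7% ± 1.3 and 46.5% ± 1.72 in eif4e (SD, n = 3). ELIP2 was called in wild type (1.0 ± 0.36) and not in eif4e (0.60 ± 0.34), and ELIP1 in neither (0.84 ± 0.38 and 0.82 ± 0.38), though with the block ELIP1 passed in both (edgeR adjusted p = 3.02e-06 and 6.31e-06) and ELIP2 in eif4e (0.00723).

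Among antenna genes, LHCA5 (0.58 ± 0.08 in wild type and 0.52 ± 0.08 in eif4e), LHCA6 (0.73 ± 0.15 and 0.62 ± 0.15) and LHCB4.3 (0.51 ± 0.14 and 0.65 ± 0.14) were higher on ribosomes in both genotypes, as was PSBS (0.37 ± 0.08 and 0.41 ± 0.08). LHCB6 passed narrowly in wild type (0.33 ± 0.14, edgeR adjusted p = 0.0479) and missed the threshold in eif4e (0.31 ± 0.14, edgeR adjusted p = 0.0686, or 0.00287 with the block). LHCA1 was lower on ribosomes in both (-0.28 ± 0.09 and -0.48 ± 0.09), as was LHCB7 (-0.42 ± 0.09 and -0.32 ± 0.09). LHCB1.4 was at 126, 116 and 162 FPKM in total and 81.5, 59.7 and 76.7 FPKM in ribosome-bound wild type (-0.77 ± 0.20, edgeR adjusted p = 0.00519), and at 180.2, 191 and 269 FPKM and 78.1, 70 and 104 FPKM in eif4e (-1.30 ± 0.20, edgeR adjusted p = 2.2e-04). Its fractions did not overlap in either genotype.

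LHCB1.3 in wild type gave -0.41 ± 0.17 without overlap (edgeR adjusted p = 0.0553, or 0.00267 with the block) and in eif4e -0.92 ± 0.17 (edgeR adjusted p = 8.6e-04). In eif4e LHCB1.5 gave -0.92 ± 0.18 and LHCB1.2 -0.59 ± 0.23, both called lower, where in wild type the values were -0.15 ± 0.18 and -0.19 ± 0.23 and neither passed. LHCB1.1 gave 0.04 ± 0.18 and -0.29 ± 0.18 (edgeR adjusted p = 0.86 and 0.181, the latter 0.00708 with the block). Summed over copies, LHCB1 gave -0.38 ± 0.18 in wild type (edgeR adjusted p = 0.0722, or 0.0048 with the block) and -0.91 ± 0.18 in eif4e (0.000944). Whether these genotypes differ is the interaction given above, in which edgeR on all libraries called 3 LHCB1 genes with the replicate block. It called 0 of them without the block or after length correction, while DESeq2 without a block called LHCB1.5 lower. The block also added LHCA2 (edgeR adjusted p = 0.0157), LHCA4 (0.00309), LHCB4.1 (0.0227) and LHCB4.2 (0.00308) as higher in wild type, and LHCA3 (0.00862), LHCB3 (0.0178) and LHCB5 (0.00836) as lower in eif4e, where 11 members were then lower and 12 higher (33.9% and 33% of all genes). In wild type 16 were then higher and 4 lower (37.5% and 37.3%). Without replicate 3 of all groups 7 members were higher in wild type (5595 of all genes, against 6489 with all libraries). Without replicate 1 of all groups 4 were lower in eif4e (4124 of all genes, against 5616). Without length correction LHCB2.1, LHCB2.2 and LHCB2.3 lay between 0.03 and 0.17 in both genotypes and passed in neither, with or without the block. LHCB2.1 and LHCB2.2 summed gave 0.14 ± 0.14 in wild type and 0.11 ± 0.14 in eif4e (edgeR adjusted p = 0.401 and 0.554). With length correction LHCB2.2 in wild type (edgeR adjusted p = 0.0248) and LHCB2.3 in wild type (0.000625) and eif4e (0.046) were called lower. With the block as well, LHCB2.1, LHCB2.2 and LHCB2.3 were lower in wild type (edgeR adjusted p = 0.00296, 0.00388 and 0.000231) and in eif4e (0.0174, 0.0363 and 0.0292).

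**Figure D4:**
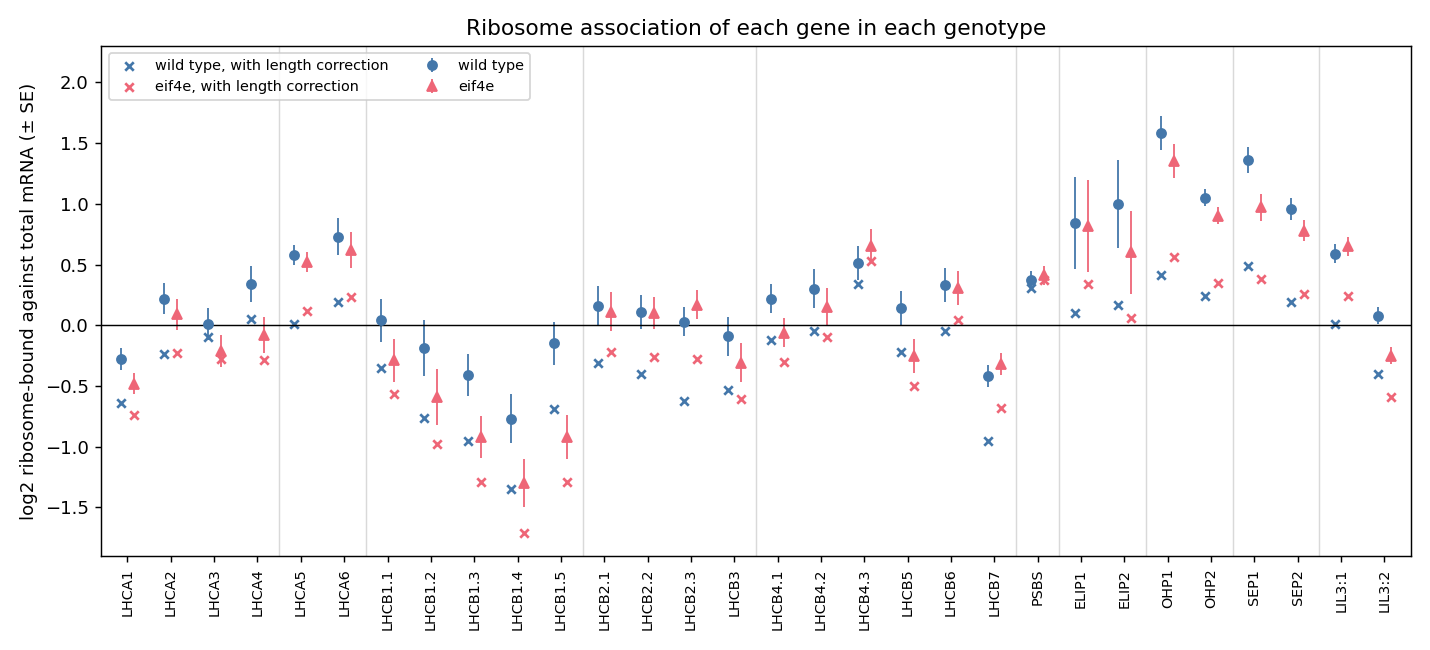
Log2 of ribosome-bound against total mRNA (± SE) for each gene in wild type (blue circles) and eif4e (red triangles), with crosses for the estimate after correction for gene length. OHP1 has the highest uncorrected value in both genotypes (1.58 and 1.35) and LHCB1.4 the lowest (-0.77 and -1.30).

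Gene length moved with ribosome association across the genome. The median log2 association in wild type fell from 0.92 in the shortest of 5 length classes through 0.40, 0.02 and -0.27 to -0.73 in the longest, and in eif4e it ran from 0.63 to -0.50. OHP1 was the shortest member at 0.345 times the median tested gene, followed by SEP1 (0.508), ELIP2 (0.529), OHP2 (0.541), SEP2 (0.562) and ELIP1 (0.58), whereas the antenna genes lay between 0.621 and 0.971. With length correction, 4 members were higher on wild-type ribosomes and 10 lower (19.7% and 22.8% of all genes), and in eif4e 7 were higher and 11 lower (19.5% and 19.9%). With the block as well, 7 were higher and 14 lower in wild type (24.5% and 29.1%) and 9 and 17 in eif4e (24.4% and 25.9%). SEP1 (0.49), OHP1 (0.41), PSBS (0.31) and OHP2 (0.24) remained higher in wild type, while LIL3:1 (0.01), LHCA5 (0.01) and LHCA6 (0.19) no longer passed. After correction LHCB1.1 in wild type crossed from 0.04 to -0.35, and the other LHCB1 estimates lay further below 0, with LHCB1.3 at -0.95 and LHCB1.4 at -1.35 in wild type and at -1.29 and -1.71 in eif4e.

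**Figure D5:**
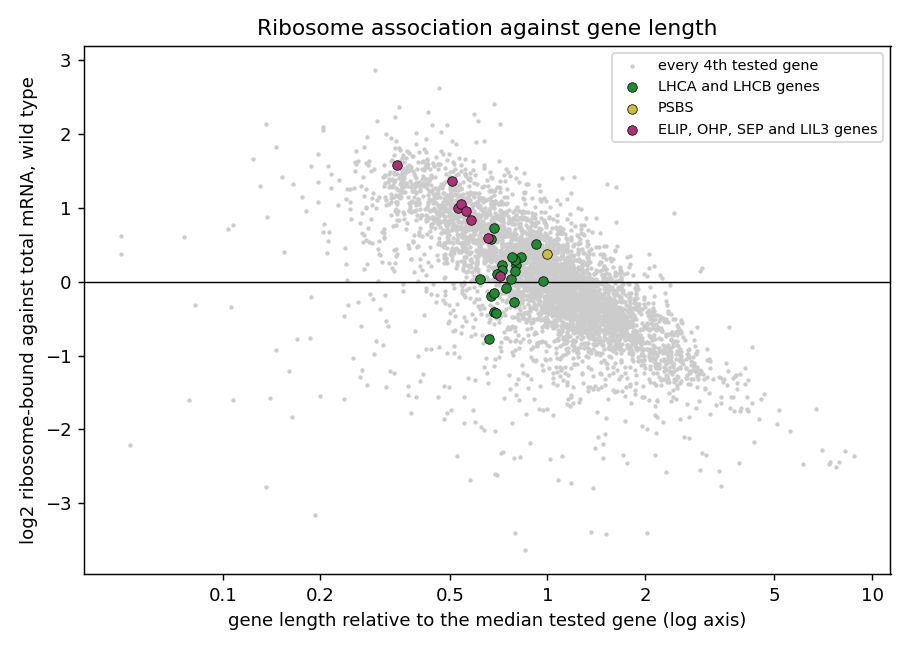
Log2 ribosome association in wild type (vertical axis) against gene length relative to the median tested gene (log axis), with every 4th tested gene in grey and the 30 members in colour. The ELIP, OHP, SEP and LIL3 genes lie at 0.345 to 0.714 on the horizontal axis, along the grey band, and the LHCB1 genes lie in its lower part or below it, at 0.662 to 0.772.

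Genes outside the superfamily that insert, pigment, modify or protect antenna proteins, or break down their chlorophyll, were followed as a list of 20. The list holds genes of opposite action, such as kinases and phosphatases, so its counts do not describe antenna building alone. In total mRNA 8 were higher and 0 lower, against 10.4% and 6.54% of all tested genes, with a median log2 change of 0.19 (edgeR's quasi-likelihood test). At an unadjusted p under 0.05, 9 were higher and 0 lower, where 33% of all tested genes passed in either direction. CHLP, the geranylgeranyl reductase of chlorophyll synthesis, rose by 0.76 ± 0.11, STN8, a thylakoid protein kinase, by 0.72 ± 0.10, CAO, which makes chlorophyll b, by 0.54 ± 0.12, and LTD, which delivers LHC proteins in the chloroplast, by 0.52 ± 0.11. The smallest called changes were HCF244 (0.34 ± 0.10), a photosystem II assembly factor that works with OHP proteins, ALB3 (0.37 ± 0.07), the thylakoid insertase of LHC proteins, LCNP (0.38 ± 0.06), a plastid lipocalin, and cpSRP43 (0.44 ± 0.09), a chaperone of LHC proteins. On ribosomes 12 were higher and 0 lower, against 15.4% and 12% of all tested genes, with a median of 0.30. At an unadjusted p under 0.05, 13 were higher and 0 lower, where 41.1% of all tested genes passed in either direction. CAO (0.72 ± 0.13), CHLP (0.58 ± 0.11), ABA1 (0.57 ± 0.08), which is zeaxanthin epoxidase, and HCF244 (0.45 ± 0.10) changed most, and STN7 (0.24 ± 0.07), the kinase of state transitions, SOQ1 (0.28 ± 0.09), which limits a slow form of quenching, STN8 (0.32 ± 0.10) and ALB3 (0.34 ± 0.07) least among those called. CAO, CHLP, ALB3, STN8 and HCF244 were called in both.

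The members shared a pattern between replicates that the groups do not explain. Their median SD within a group was 0.186 on the log2 scale, against 0.137 for all tested genes. Of the 21 antenna genes, 19 were lowest in replicate 2 of total wild type and 20 in replicate 2 of ribosome-bound wild type, where 50.3% and 42.4% of all tested genes were lowest, and in eif4e 12 and 14 were lowest in replicate 2 (37.9% and 27.8% of all genes). ELIP1 showed the opposite order, with its highest level in replicate 2 of each of the 4 groups. Within pairs of the same replicate number, 28 of 30 members were higher in eif4e in all 3 total pairs and 22 of 30 in all 3 ribosome-bound pairs. The share of all tested genes that did so was not computed, so these counts only describe the members, which share their libraries.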

How the data were processed

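The deposited tables hold, for each library and gene, read counts as the authors made them and, deposited beside them, FPKM in which those counts are scaled by gene length and sequencing depth. Reads were aligned with TopHat2 2.0.11 to TAIR10, per the submitters' processing notes, and libraries were made with a stranded poly(A)-selecting kit, per the labels' protocols; the counting program and annotation are not given in the sources used here. Genes absent from a library's table counted as 0 there (3308 genes, with at most 51 counts elsewhere). Depth was 17058704 to 24673644 counts per library, and replicates of a group differed beyond counting noise, with chi-square values of 7.13 or more per degree of freedom.

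Genes with a mean of at least 1 FPKM (19170) were fitted in edgeR 4.0.16 (R 4.3.3) with TMM scaling, 1 mean per group and 8 residual degrees of freedom, which gave a common dispersion of 0.0185. Tests were two-sided quasi-likelihood F tests, adjusted by Benjamini-Hochberg over all tested genes of a contrast at 0.05. The pipeline was also run on counts simulated with a dispersion of 0.0185 and no replicate or length effects. That run does not measure error rates in these data. Standard errors came from the estimate and its F statistic. Relative gene length was computed back from counts and FPKM, and the length correction fitted a smooth trend on length within each library. Alternatives were other scalings, DESeq2 1.42.0, limma 3.58.1 on log2(FPKM + 1) and log2(FPKM + 0.1), other filters, length correction, LHCB1 copies summed (and LHCB2.1 with LHCB2.2), a replicate block and the omission of libraries. Replicate numbers come from the sample titles. All 18 pairs of libraries with the same number in different groups deviated together from their group means (correlations of 0.198 to 0.852 over 16092 genes). The numbers were therefore taken to pair the samples in the replicate block, and results given without the block left this pairing out. Total and ribosome-bound libraries of the same genotype and number had mean correlations of 0.698 in wild type and 0.732 in eif4e. Libraries of the same number but different genotypes had mean correlations of 0.383 to 0.485. The block held the number alone, so the closer tie within a genotype was not modelled. An index sheet gives 12 libraries with 6 indexes, each used for 1 wild-type and 1 mutant library. It does not name the sequencing batch of a library, so whether batch and genotype coincide is not known here. Names were matched to RefSeq TAIR10.1 (30 of 30 members), which was used for names and neighbours only; promoter and protein sequences were not analysed here.

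The members and gene lists were chosen with earlier results of these data known. All 30 members are named; of the list of 20 pathway genes, up to the 4 highest and 4 lowest called changes are named in each genotype comparison, and marker lists covered root, mesophyll, guard cells, phloem and dividing cells.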

Additional observations from a re-analysis of the deposited data

Results flagged for a closer look

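SEP2, a stress-enhanced protein gene, was higher in eif4e than in wild type in all 3 total pairs of the same replicate number (by 0.13, 0.04 and 0.03 on the TMM-scaled log2 scale) and lower in all 3 ribosome-bound pairs (log2 differences of -0.06, -0.12 and -0.14). It is listed here because the pairs of the fractions moved in opposite directions. The interaction estimate was -0.17 ± 0.13 (SE, edgeR's quasi-likelihood test with Benjamini-Hochberg adjustment, adjusted p = 0.514), so a difference was not shown. Without TMM the change in total mRNA was -0.06, and with length correction the interaction was 0.07 (edgeR adjusted p = 0.944).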

How the results depend on the processing

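Directions of the genotype comparisons held more firmly than calls. Over all alternatives that kept the copies apart, 27 to 30 members were positive in total mRNA and 24 to 30 on ribosomes. With LHCB1 copies summed, and LHCB2.1 with LHCB2.2, 24 of 25 were positive in total mRNA and 21 of 25 on ribosomes. Leaving out replicates, the members called higher ranged from 1 to 21 in total mRNA and from 0 to 15 on ribosomes, those lower in the interaction from 0 to 3, those higher on wild-type ribosomes from 7 to 16 and those lower on eif4e ribosomes from 4 to 9. Over all genes the same omissions gave 370 to 2086 higher in total mRNA and 4 to 2991 on ribosomes. They gave 0 to 884 lower in the interaction, 5220 to 6553 higher on wild-type ribosomes and 4124 to 5671 lower on eif4e ribosomes. The lowest counts in total mRNA and on ribosomes came without replicate 1 of all groups. With the replicate block 19 members were higher on ribosomes, 7 lower in the interaction and 11 lower in association in eif4e, and the block removed 0 of the calls made without it. With only the libraries compared in the fit, 6 were higher on ribosomes, where 1348 of all genes were. DESeq2 called 2 lower in the interaction, where it called 702 of all genes lower. With these copies summed 4 of 25 were lower in association in eif4e, where 5615 of all genes were. With the block added to these sums, an alternative chosen after seeing the data, 5 of 25 were lower in the interaction (1061 of all genes). Library size alone gave 14 higher in total mRNA, with 1022 of all genes higher and 3034 lower.

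Length correction gave 4 higher and 10 lower in association in wild type and 11 lower in eif4e, and with the block 26 higher on ribosomes, 7 higher and 14 lower in association in wild type and 17 lower in eif4e. The sign of association in wild type turned from positive to negative with length correction, without and with the block, for LHCA2 (-0.24 and -0.25), LHCA3 (-0.10 in both), LHCB1.1 (-0.35 and -0.36), LHCB2.1 (-0.31 in both), LHCB2.2 (-0.40 and -0.41), LHCB2.3 (-0.62 in both), LHCB4.1 (-0.12 and -0.13), LHCB4.2 (-0.05 in both), LHCB5 (-0.22 in both), LHCB6 (-0.05 in both) and LIL3:2 (-0.40 in both). In eif4e it turned likewise for LHCA2 (-0.23 and -0.24), LHCB2.1 (-0.22 in both), LHCB2.2 (-0.26 in both), LHCB2.3 (-0.28 in both) and LHCB4.2 (-0.10 in both). SEP1 on ribosomes turned to 0.17 (edgeR adjusted p = 0.034) with both. The cause was not tested. Depth limits ELIP2, with as few as 34 counts in a library, and 3 libraries a group limit every test.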

Other observations

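In ribosome-bound wild type, LHCB1.3 held a mean rank of 21 among listed genes, against 5 in total wild type, and 0 members were among the 10 highest FPKM values of any ribosome-bound library, where LHCB1.3 was among them in each total library. In total eif4e its mean rank was 3. The 30 members summed to 1.24% ± 0.135 of all counts in total wild type, 1.85% ± 0.218 in total eif4e, 1.23% ± 0.146 in ribosome-bound wild type and 1.5% ± 0.157 in ribosome-bound eif4e (SD, n = 3). ELIP2, the lower ELIP copy, made up 13.8% ± 3.64 of the summed ELIP FPKM in total wild type, 26.3% ± 6.17 in total eif4e, 15.7% ± 3.26 in ribosome-bound wild type and 24% ± 2.69 in ribosome-bound eif4e (SD, n = 3).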
